A study of Mus musculus with 3 samples.

Results

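Clustered protocadherins are cell-surface adhesion proteins encoded in 3 tandem arrays, alpha, beta and gamma, on mouse chromosome 18. Their RNA levels were examined in medial prefrontal cortex (mPFC), part of the frontal lobe of the mouse. Members were the genes whose symbol matched the naming pattern of the 3 arrays, including the C-type genes Pcdhac1, Pcdhac2, Pcdhgc3, Pcdhgc4 and Pcdhgc5. The pattern found 58 of the 46073 rows of the gene table, 14 in the alpha, 22 in the beta and 22 in the gamma array. Those rows carry 57 symbols, since 2 rows share the name Pcdha11 and no row is named Pcdha10. Which of those rows, if either, holds Pcdha10 cannot be told from the table, so both are given as Pcdha11 with that doubt.

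The tissue came from naïve C57BL/6 mice aged 3 months, with no treatment, transgene or second condition in the labels. The series holds 3 samples, 1 each of DNA enriched for methylated cytosine (MeDIP), of input DNA and of RNA, and only the RNA sample was analysed here. The design text states 3 replicates for RNA, while the table gives 1 value per gene, because its 2 value columns are equal in all 46073 rows. The unit is FPKM, the fragments mapped to a gene per kilobase of its transcript, scaled to the library's mapped fragments, which allows genes of different length to be ranked within the sample. Replicate spread was therefore not available: levels are given without an error, differences without a test, and ratios set values of the same table side by side. Because the depth is unknown, counting intervals are not given.

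Each clustered protocadherin has an extracellular part of cadherin repeats, through which many, though not all, isoforms bind the same isoform on another cell. In the alpha and gamma arrays each variable exon has its own promoter and is spliced to a set of constant exons at the 3′ end of the array, so that all isoforms of an array share their cytoplasmic end. Beta genes have a single coding exon and no constant exons. A neuron chooses a few of the alternate isoforms by random promoter use, which involves promoter methylation, CTCF and cohesin, and so acquires a surface identity used for self-avoidance of its branches. The C-type isoforms at the 3′ end of the alpha and gamma arrays are not chosen in this random way and are expressed more evenly among neurons. A level in bulk tissue is an average over all its cells, and fewer cells using an isoform and less RNA of it per cell cannot be told apart.

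The tissue's neuronal and glial markers were present. All 6 neuronal markers were at 1 FPKM or more, between 21.2 FPKM for Gad2 and 1279 FPKM for Snap25. Markers of other cells were present too: all 6 of astrocytes (median 48.6 FPKM), 5 of oligodendrocytes (median 204 FPKM), 5 of microglia (median 17.97 FPKM), 4 of endothelium (median 8.34 FPKM) and 3 of choroid plexus (median 12.5 FPKM), of which Ttr was highest at 566 FPKM and Kcnj13 lowest at 8.57 FPKM. The cells from which each protocadherin RNA came were not told apart, and the part of these cell types in the levels below was not tested. The serotonergic markers Tph2, Slc6a4 and Fev were all under 1 FPKM, the highest being Tph2 at 0.384 FPKM.

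In the RefSeq annotation of GRCm38.p6, the assembly of mm10, the alpha array spans chromosome 18 from 36930285 to 37188897, the beta array from 37264998 to 37521419 and the gamma array from 37661775 to 37841873. All 13 alpha symbols end within 1240 bases of each other and all 22 gamma symbols within 1384 bases, at the shared constant exons. Every one of the 78 alpha pairs and 231 gamma pairs therefore overlaps in the annotation. None of the 231 beta pairs overlaps, and beta genes are 2340 to 5271 bases long. Reads from the constant exons belong to no single alpha or gamma isoform, so the alpha and gamma values depend on how the authors' program divided them, and each is uncertain for that reason. Beta genes share no exon, but they are paralogs of high similarity, and reads that fit several of them are uncertain as well.

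Most members were detected at a low level, and none was listed at 0. Taking 1 FPKM as the floor for detection, 43 of 58 rows (74.1%) were detected. The background was 31.5% of all rows and 58.6% of protein-coding rows. The median over the 58 rows was 1.56 FPKM, against 2.59 FPKM over all protein-coding rows and 9.86 FPKM over the detected ones. Only 17 members lay above the protein-coding median, 10 of them gamma A isoforms and 4 of them C-type. From 0.5 to 5 FPKM lay 48 of the 58 rows, with 5 rows above that range and the same number below it.

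The floor falls within this range. Just under it, from 0.8 to 1 FPKM, were 6 members: Pcdha2, Pcdha7, Pcdhb6, Pcdhb10, Pcdhb16 and Pcdhb19. Just over it, up to 1.2 FPKM, were 5 members: Pcdha3, Pcdha6, Pcdhb15, Pcdhgb4 and Pcdhgb5. Detection of a single member near the floor is therefore a weak statement.

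**Figure D1:**
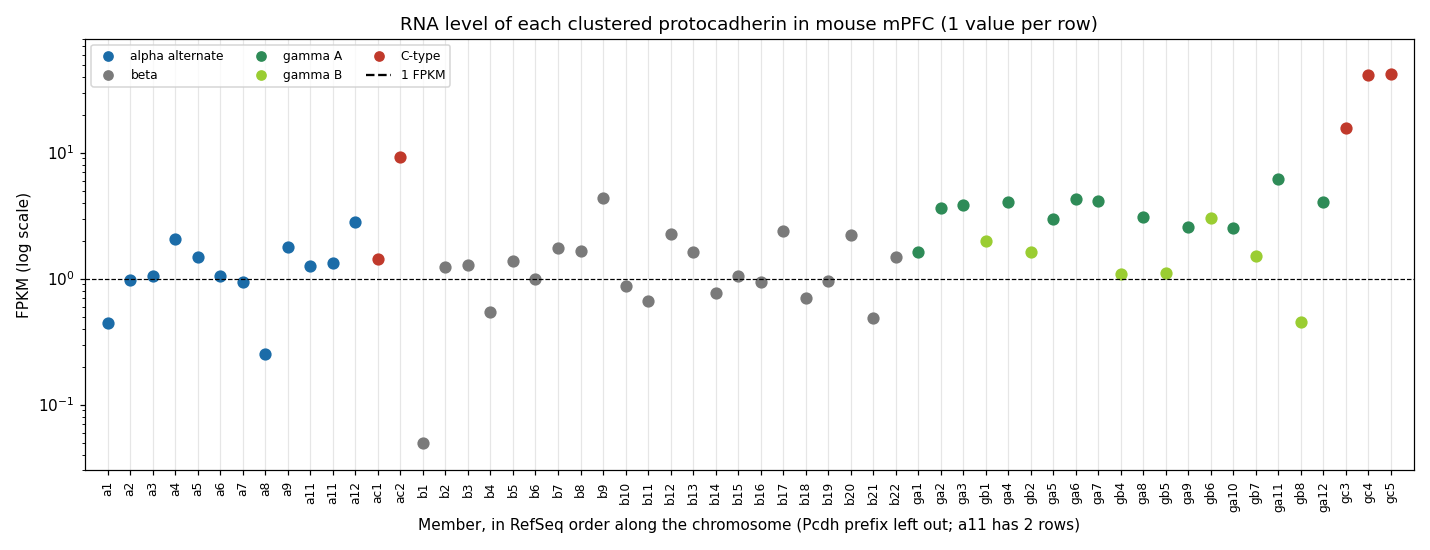
FPKM of each of the 58 rows on a log axis, in RefSeq order along the chromosome from the alpha array through beta to gamma, 1 point per row, coloured by isoform type, with the floor of 1 FPKM dashed. Most points lie from 0.5 to 5 FPKM, while Pcdhac2 at the end of the alpha array and Pcdhgc3, Pcdhgc4 and Pcdhgc5 at the end of the gamma array stand at 9.20, 15.7, 41.3 and 42.1 FPKM.

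The top 4 members were all C-type isoforms, while the remaining C-type isoform, Pcdhac1, ranked 33rd of 58. Pcdhgc5, a late-onset isoform of the forebrain that is reported to bind a GABA receptor subunit, was the highest member at 42.1 FPKM. Pcdhgc4, the isoform needed for neuron survival and for life after birth, followed at 41.3 FPKM. These levels are 1.02-fold apart and lie near the 92nd percentile of protein-coding rows (91.9 for Pcdhgc4 and 92.0 for Pcdhgc5). Pcdhgc3, which promotes dendrite branching and binds the Wnt pathway scaffold Axin1, came next at 15.7 FPKM, the 79.0th percentile. It was 2.68-fold below Pcdhgc5 and 2.63-fold below Pcdhgc4.

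The C-type members of the alpha array differed from each other. Pcdhac2, the isoform through which serotonergic axons space themselves, ranked 4th of all members at 9.20 FPKM, the 69.5th percentile. Pcdhac1 was at 1.44 FPKM, the 44.3rd percentile, 6.39-fold below Pcdhac2 and 29.2-fold below Pcdhgc5. Pcdhac1 thus stood among the alternate isoforms of its array, above 8 of 12 of them and below Pcdha12, Pcdha4, Pcdha9 and Pcdha5. Of the 10 pairs that the 5 C-type members form, 8 were apart by 2-fold or more on the log2(FPKM + 1) scale. The pairs within that limit were Pcdhgc5 with Pcdhgc4 and Pcdhgc3 with Pcdhac2, the latter 1.71-fold apart.

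As a group the C-type isoforms had a median of 15.7 FPKM, against 1.79 FPKM for the 31 alternate alpha and gamma rows. The difference of the medians was 2.58 on the log2(FPKM + 1) scale. That scale, used because it keeps low values stable, understates differences that involve low genes. Of the 155 pairs of a C-type and an alternate row, the C-type row was higher in 135. All 3 gamma C-type isoforms were above all 19 alternate gamma rows, with medians 14.0-fold apart. Pcdhgc3, the lowest of those 3, was 2.53-fold above Pcdhga11, the highest alternate. Pcdhac2 was 3.28-fold above Pcdha12, the highest alternate of the alpha array.

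**Figure D2:**
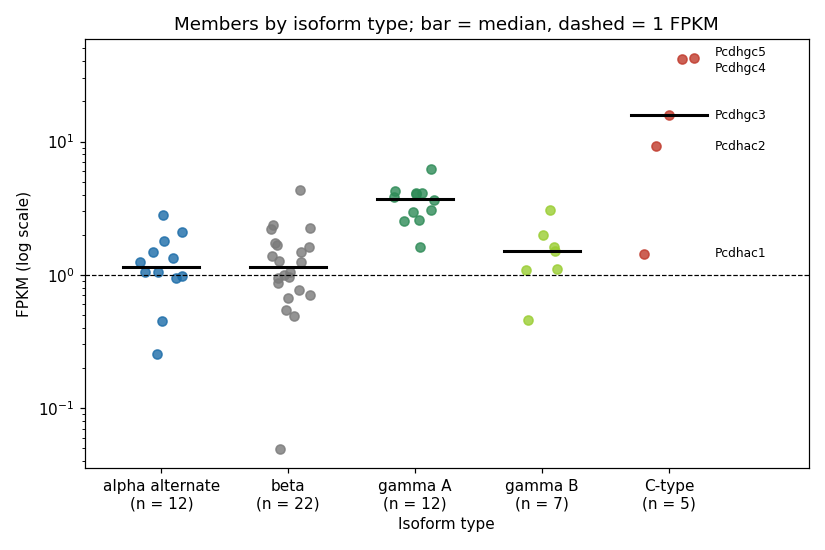
FPKM on a log axis by isoform type: 12 alternate alpha rows, 22 beta, 12 gamma A, 7 gamma B and 5 C-type, 1 point per row, spread sideways only to be seen; bars are medians and the dashed line is 1 FPKM. The medians are 1.15, 1.14, 3.73, 1.5003 and 15.7 FPKM, and of the C-type points only Pcdhac1 lies within the range of the alternate isoforms.

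The summed level was concentrated in those few isoforms. The 5 C-type isoforms held 52.6% of the summed FPKM of all 58 rows, which came to 208.7 FPKM, and the 3 gamma C-type isoforms alone held 47.5%. Within the gamma array, Pcdhgc5 held 27.5% of the summed FPKM, Pcdhgc4 held 27.0% and Pcdhgc3 10.3%. Within the alpha array, Pcdhac2 held 35.2% and Pcdhac1 5.52%. The beta array has no C-type isoform, and its highest member, Pcdhb9, held 14.6% of the beta sum.

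The evenness of an array can be put as an effective number, the number of equally abundant isoforms that would give the same concentration (the inverse of the sum of squared shares). It was 6.09 for the 14 alpha rows, 15.4 for the 22 beta rows and 5.97 for the 22 gamma rows. Without their C-type isoforms it was 9.47 for the 12 alternate alpha rows and 15.3 for the 19 alternate gamma rows. As a share of the rows counted, the effective number was 78.9% in alternate alpha, 80.4% in alternate gamma and 70.2% in beta rows, against 43.5% in the whole alpha and 27.2% in the whole gamma array.

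**Figure D3:**
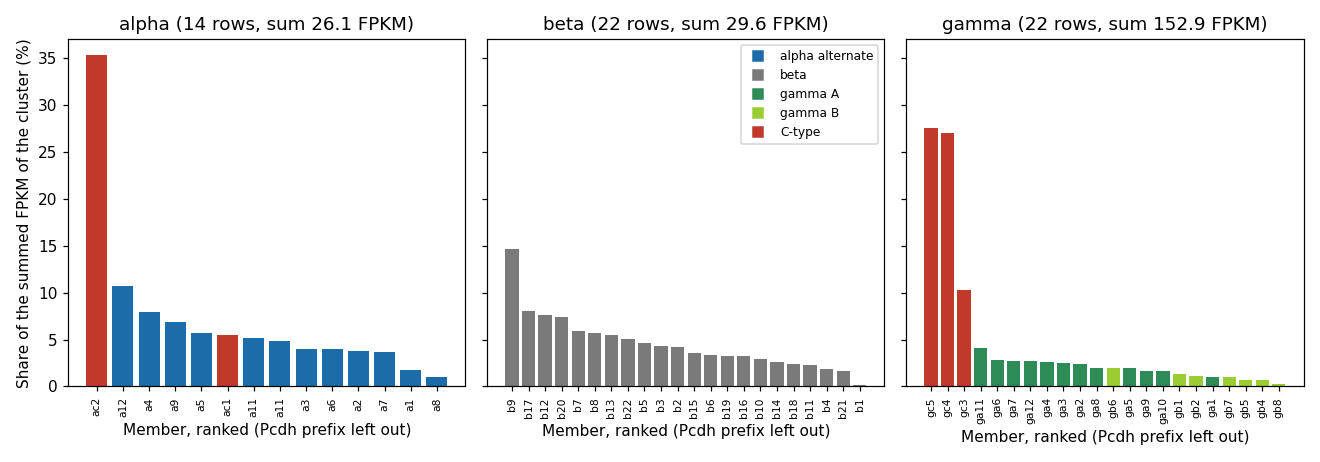
Share of each array's summed FPKM held by each member, in percent, ranked from highest to lowest, for the alpha, beta and gamma arrays (bars coloured by isoform type, axis from 0). Pcdhac2 holds 35.2% of the alpha sum and Pcdhgc5 and Pcdhgc4 hold 27.5% and 27.0% of the gamma sum, while the beta bars descend gradually from 14.6% for Pcdhb9.

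By array, gamma was highest, and alpha and beta were nearly level. The gamma array had a median of 3.06 FPKM and a sum of 152.9 FPKM, 73.3% of the sum over all members. The alpha array had a median of 1.29 FPKM and a sum of 26.1 FPKM, and the beta array a median of 1.14 FPKM and a sum of 29.6 FPKM. The share detected followed the medians, at 21 of 22 gamma rows (95.5%), 10 of 14 alpha rows (71.4%) and 12 of 22 beta rows (54.5%). The beta share is near the 58.6% of all protein-coding rows, and 4 beta rows lie just under the floor.

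The order did not rest on the C-type isoforms alone. Among alternates, the gamma median of 2.96 FPKM was 2.58 times the alpha median of 1.15 FPKM and 2.59 times the beta median. On the log2(FPKM + 1) scale these differences were 0.88 and 0.89, under the 2-fold limit on that scale. The excess lay mainly with gamma A isoforms, whose median was 3.25 times the alternate alpha median and 3.27 times the beta median. For gamma B isoforms the ratio was 1.31 in both comparisons. The alternate alpha and beta medians were 1.01-fold apart, and an alternate alpha row was above a beta row in 137 of 264 pairs. How the constant-exon reads of the alpha and gamma arrays were divided enters the comparison with beta, which has none, and its part was not tested.

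Within the gamma array the A and B subtypes, whose variable exons alternate along the chromosome and join the same constant exons, stood at different levels. The 12 gamma A isoforms had a median of 3.73 FPKM and all passed the floor. Pcdhga11 was highest at 6.21 FPKM, followed by Pcdhga6 at 4.25 and Pcdhga7 at 4.13 FPKM. Pcdhga12, Pcdhga4, Pcdhga3 and Pcdhga2 were close behind, at 4.09, 4.06, 3.82 and 3.65 FPKM. Pcdhga8 and Pcdhga5 stood at 3.08 and 2.96 FPKM. The lowest were Pcdhga9 at 2.59, Pcdhga10 at 2.53 and Pcdhga1, the first of the array, at 1.62 FPKM. The whole subtype thus spanned 3.84-fold, and 11 of 12 members lay within 2-fold of its median.

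The 7 gamma B isoforms were lower, with a median of 1.5003 FPKM. Pcdhgb6 was their highest at 3.04 FPKM, followed by Pcdhgb1 at 2.004 and Pcdhgb2 at 1.63 FPKM. Pcdhgb7 was at 1.5003, Pcdhgb5 at 1.0996 and Pcdhgb4 at 1.08 FPKM. Pcdhgb8, which RefSeq lists as a transcribed pseudogene, was the lowest of the gamma array at 0.457 FPKM and its only row under the floor. All other members are listed as protein coding. The A median was 2.49 times the B median, a difference of 0.92 on the log2(FPKM + 1) scale, just under the 2-fold limit on that scale.

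Neighbours on the chromosome showed the same order. Each gamma B exon has a gamma A exon on both sides, which gives 14 neighbouring pairs, and the A isoform was higher in 12 of them. The ratio of A to B had a median of 2.43 and ranged from 0.832 to 13.6. The pairs with B higher were those of Pcdhgb6 with Pcdhga9 and Pcdhga10. The highest ratios were those of Pcdhgb8 with Pcdhga11 and Pcdhga12. These pairs share members and are not independent. They also reuse the values behind the A and B medians, so they are no separate support for that difference. Over all 84 pairs of an A and a B isoform, neighbours or not, A was higher in 78.

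The alternate alpha isoforms, first described as cadherin-related neuronal receptors, were low, with a median of 1.15 FPKM. Within 2-fold of that median lay 9 of 12 rows. Detected were 8 of 12 rows (66.7%), near the 58.6% of all protein-coding rows. Pcdha12, the alternate nearest to the constant exons, was highest at 2.80 FPKM. Pcdha4 followed at 2.08, Pcdha9 at 1.79 and Pcdha5 at 1.49 FPKM. The rows named Pcdha11 were at 1.25 and 1.34 FPKM. Pcdha3 and Pcdha6 stood at 1.05 and 1.04 FPKM, and Pcdha2 and Pcdha7 just under the floor at 0.973 and 0.947 FPKM. Pcdha1, at the 5′ end of the array, was at 0.448 FPKM and Pcdha8 was lowest at 0.254 FPKM. Pcdha12 was 11.1-fold above Pcdha8, which has Pcdha7 and Pcdha9 as its neighbours.

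A joined transcript that begins in the alpha array and ends in the gamma array had its own row, outside the naming pattern. RefSeq gives Gm37013, with the synonym Pcdha4-g, a span from 36952648 to 37841873, from the start of Pcdha4 to the end of the gamma array. It was at 0.951 FPKM, which is 45.7% of the level of Pcdha4. Pcdha4 lies wholly within this span, so reads shared by both rows cannot be divided with certainty. The span also takes in the gamma array with its constant exons, which all gamma isoforms share. Reads across the join were not counted here, so the value does not show how much joined transcript was present. Gm37013 was named after its value was seen.

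The beta isoforms, which lack the shared cytoplasmic end, formed a continuous series with 1 row well below it. Pcdhb9 was highest at 4.34 FPKM, 1.82-fold above Pcdhb17 at 2.38 FPKM. Pcdhb12 and Pcdhb20 followed at 2.25 and 2.20 FPKM. From there the series ran through Pcdhb7, Pcdhb8, Pcdhb13, Pcdhb22, Pcdhb5, Pcdhb3, Pcdhb2 and Pcdhb15, from 1.74 down to 1.04 FPKM. Another 9 rows lay between 0.992 FPKM for Pcdhb6 and 0.491 FPKM for Pcdhb21, with Pcdhb4 at 0.543 FPKM second lowest among them. Pcdhb1, the first gene of the array, was at 0.0496 FPKM, 9.90-fold below Pcdhb21 and the lowest of all members. Of the 22 beta rows, 17 were within 2-fold of the beta median.

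Of the 53 alternate and beta rows, 35 lay within 2-fold of their common median. The SD of log2(FPKM + 1) was 0.44 over alternate alpha rows, 0.50 over beta, 0.37 over gamma A and 0.46 over gamma B rows. It was 1.71 over the 5 C-type rows and 1.63 over all detected protein-coding rows. The pseudocount of 1 narrows the spread of low genes, so these SDs are comparable only among groups at a similar level, such as alpha, beta and gamma B. From the lowest to the highest member, the ratio was 11.1 in alternate alpha, 87.5 in beta and 6.66 in gamma B rows.

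Level followed place in the array only loosely. Spearman's rho between FPKM and the order along the chromosome was 0.54 over the 14 alpha rows, 0.07 over the 22 beta rows and 0.32 over the 22 gamma rows. These coefficients are descriptions across genes of 1 sample, and the alpha and gamma points share constant exons. The C-type isoforms lie at the 3′ end of their arrays, and without them rho was 0.42 in alpha and -0.06 in gamma. In medians, the first 6 alternate alpha rows stood at 1.04 FPKM and the last 6 at 1.29 FPKM. The first 11 beta rows stood at 1.24 FPKM and the last 11 at 1.04 FPKM. For alternate gamma rows the values were 3.65 FPKM for the first 9, of which 2 are gamma B, and 2.59 FPKM for the last 9, of which 4 are gamma B. Within the subtypes, rho was 0.29 over the 12 gamma A rows and -0.43 over the 7 gamma B rows. In the beta array, rho of FPKM with the length of the gene in RefSeq was -0.13 over the 22 rows.

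The nonclustered protocadherins, adhesion proteins of the same family that are encoded by separate genes, served as a comparison. The floor was passed by 10 of 12 such genes, against 58.6% of all protein-coding rows. Their median of 6.15 FPKM was 3.94 times the median of the clustered members. Pcdh1 was highest at 42.3 FPKM, followed by Pcdh10 at 39.8 and Pcdh9 at 21.5 FPKM, and Pcdh18 and the endothelial Pcdh12 were lowest at 0.832 and 0.0566 FPKM. Pcdh1 and Pcdhgc5 differed by 1.004-fold. Of the 12 nonclustered genes, 6 were above every beta and alternate member. The lowest of those 6, Pcdh19 at 6.217 FPKM, was practically level with the highest alternate, Pcdhga11 at 6.212 FPKM. In sum the 58 clustered rows, at 208.7 FPKM, were 1.39 times the 12 nonclustered genes, at 149.7 FPKM.

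Among genes that act on the arrays, 20 of 21 passed the floor, against 58.6% of all protein-coding rows. Their median was 9.24 FPKM, close to the 9.86 FPKM of the detected protein-coding rows. The list holds CTCF, the cohesin ring and its loaders, DNA methyltransferases and repressors linked to this locus or to CTCF and cohesin. Ctcf, the factor that binds the promoters and enhancers of the arrays, was at 18.8 FPKM. Of the cohesin ring, Rad21 was at 26.8, Smc1a at 17.6 and Smc3 at 8.69 FPKM, and Stag2 was 1.66-fold above Stag1. Nipbl, which loads cohesin, was at 3.93 FPKM, and Wapl, which releases it, at 13.1 FPKM. The histone methyltransferase gene Ehmt2 was the highest of the list at 48.6 FPKM. Smchd1 and Setdb1, repressors that act on this locus, stood at 6.42 and 6.16 FPKM. Dnmt3b, which methylates these promoters in the embryo, was the only gene of the list under the floor at 0.155 FPKM, below Zfp143 at 2.29 FPKM. Every gene of this list other than Dnmt3b was above the median of the clustered members.

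Genes for proteins that bind or act downstream of clustered protocadherins were higher still, with a median of 37.3 FPKM. Detected were 23 of 24, against 58.6% of all protein-coding rows, and the detected protein-coding rows had a median of 9.86 FPKM. The shared cytoplasmic ends bind the kinases Ptk2 (FAK) and Ptk2b (PYK2), and Ptk2b at 122 FPKM was 5.94-fold above Ptk2 at 20.6 FPKM. Of the WAVE complex, which drives actin branching and binds some protocadherins, Nckap1 was highest at 146 FPKM. Its subunit gene Cyfip2 was 6.91-fold above Cyfip1, and Wasf1 was 19.6-fold above Wasf2, which stood at 4.15 FPKM. Ctnnb1 and Rac1 stood at 139 and 138 FPKM. Axin1, the partner of Pcdhgc3, was at 14.3 FPKM, close to the level of Pcdhgc3 itself. Of the neuroligins, which some gamma protocadherins bind, Nlgn2 was at 59.2 and Nlgn1 at 11.995 FPKM. Adam10, a protease that cleaves these protocadherins at the surface, was at 14.5 FPKM. The receptor kinase gene Ret was lowest at 0.373 FPKM and the only one under the floor.

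**Figure D4:**
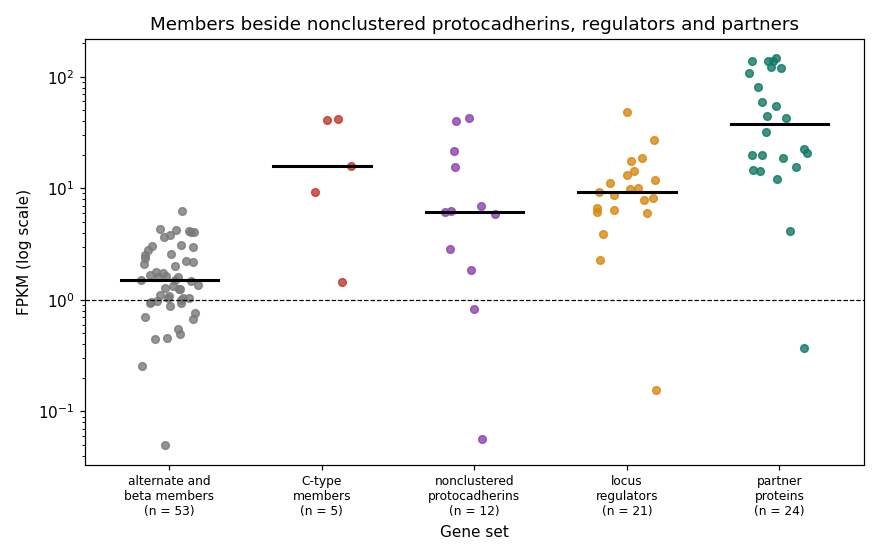
FPKM on a log axis for the 53 alternate and beta members, the 5 C-type members, 12 nonclustered protocadherins, 21 regulators of the locus and 24 partner proteins, 1 point per row, with medians as bars and 1 FPKM dashed. The medians are 1.49, 15.7, 6.15, 9.24 and 37.3 FPKM, so that the alternate and beta members lie lowest and the C-type median lies between the regulators and the partners.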

How the data were processed

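RNA from mPFC was made into libraries with the TruSeq RNA v2 kit, per the labels' protocols. The authors used CASAVA 1.8.2, TopHat and Cufflinks with build mm10, per the submitters' processing notes. Not given in the sources used here are the annotation release, strand handling, the treatment of shared or repeated reads and how replicates were combined. The deposited values are FPKM, and the equal columns were counted as 1 sample. Identifiers were matched to symbols for 45139 rows, leaving 934 without one. Gene class and position came from RefSeq (GRCm38.p6), by symbol, with 20635 rows protein coding. Medians, sums, ratios, percentiles among protein-coding rows and log2(FPKM + 1) differences were computed with Python 3.11.15, numpy 2.4.6, pandas 2.3.3 and scipy 1.17.1 and checked on simulated data. Named were the C-type members, the extremes of each array and of the regulator, partner and nonclustered lists, and others where described; most marker lists are given by their medians. Members and lists were chosen with earlier results of these data known. Promoter and protein sequences of the members were not analysed here. Alternatives for floor, pseudocount, summary, scaling and members were computed. A list gene is counted but not reported by name here.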

Additional observations from a re-analysis of the deposited data

How the results depend on the processing

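No spread between replicates exists, so any shift beyond rounding counts as a change here. No paired analysis was possible because the RNA has 1 value per gene, and leaving out a replicate was not possible for the same reason. The count of 43 detected members became 53 of 58 at a floor of 0.5 FPKM and 23 at 2 FPKM. Background shares were computed only at 1 FPKM without rescaling, so these counts have none beside them. The protein-coding median of 2.59 FPKM lies above the floor of 2 FPKM, and the member median of 1.56 FPKM lies below it. At 2 FPKM the share detected was therefore lower among members than among protein-coding rows, the reverse of the order at 1 FPKM. Leaving the mitochondrial rows, which hold 50.04% of the summed FPKM, out of the total raised every FPKM by 1.001 on the log2 scale and gave 53 detected; ratios of FPKM do not depend on it. The median became 1.15 FPKM in alpha and 2.96 FPKM in gamma without C-type members, and 1.24 FPKM in alpha without both Pcdha11 rows. Geometric means were 1.47 FPKM for alpha, 1.21 FPKM for beta and 3.79 FPKM for gamma. The C-type minus alternate difference of 2.58 became 3.06 with a pseudocount of 0.1, 2.34 as a difference of means and 2.82 without mitochondrial rows. It became 1.87 without Pcdhgc4 and Pcdhgc5, and 3.25, 3.25, 2.89, 2.22 and 2.22 without Pcdhac1, Pcdhac2, Pcdhgc3, Pcdhgc4 and Pcdhgc5 in turn. The gamma A minus B difference of 0.92 became 1.26 with a pseudocount of 0.1, past the 2-fold limit, 0.87 as a difference of means and 0.89 without Pcdhgb8. The coefficient of level with order became, in alpha, 0.42 without C-type members, 0.56 as Pearson's r, 0.50 without Pcdha11 and 0.43 without the highest member. In beta it became 0.13 as Pearson's r and 0.12 without the highest member. In gamma it was -0.058 without C-type members, a change of sign, 0.50 as Pearson's r and 0.22 without the highest member. Leaving out single C-type members, Pcdhgc4 with Pcdhgc5, the highest member of an array, Pcdha11 or Pcdhgb8 was chosen after seeing the data. The unknown depth limits most the members near and under 1 FPKM.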

Other observations

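The genes around the arrays, taken as all RefSeq protein-coding genes with a row within 250 kb of either end and chosen after the values were seen, stood higher than most members. The floor of 1 FPKM was passed by 13 of these 15 genes, against 58.6% of all protein-coding rows. Their median was 14.5 FPKM. On the alpha side Ndufa2, a subunit of respiratory complex I, was highest at 109.7 FPKM, followed by Zmat2 at 57.9 and the splicing factor gene Ik at 48.5 FPKM. On the gamma side the actin nucleator gene Diaph1, next to the gamma array, was at 13.9 FPKM and the deacetylase gene Hdac3 at 30.6 FPKM. The lowest of the 15 were E230025N22Rik at 0.0711 and Dnd1 at 0.362 FPKM, both on the alpha side. Between the beta and gamma arrays lie Slc25a2, a mitochondrial carrier gene, at 0.0503 FPKM and Taf7, a subunit of the general transcription factor TFIID, at 1.71 FPKM.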
